A study of Mus musculus with 6 samples.

Results

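Epas1, the gene of hypoxia-inducible factor 2 alpha (HIF-2α), and 9 genes of the same oxygen-sensing system were followed in mouse alveolar macrophages: Hif1a, Arnt, Hif1an, Egln1, Egln3, Vhl, Vegfa, Bnip3 and Ankrd37. They were taken by symbol from a table of 25664 genes, and all 10 were found. The set was selected on the measured levels in these same libraries, VavCre against WT, and so the differences between the groups for these 10 genes are given as a description without p-values. The RNA was from alveolar macrophages sorted from lung lavage, in 3 libraries of Vav1cre/+ Pex5fl/fl mice, called VavCre after the library names, and 3 libraries of Pex5fl/fl mice, called WT. Both groups carry the floxed allele of Pex5, the receptor that imports enzymes into peroxisomes, and only VavCre mice carry the Cre recombinase, driven by Vav1 regulatory sequences that are active throughout blood-forming cells. Mice with Cre alone were not analysed here, so an effect of the recombinase and one of the deletion cannot be told apart. Age and sex are not stated in the sources used here.

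HIFs are pairs of an oxygen-regulated alpha subunit, HIF-1α or HIF-2α, and a stable partner, ARNT. With oxygen present, prolyl hydroxylases (the EGLN enzymes) mark the alpha subunits for the VHL ubiquitin ligase, which has them degraded, and the asparaginyl hydroxylase FIH, encoded by Hif1an, blocks their binding to coactivators. The alpha subunits are therefore controlled mainly as proteins, which were not measured. In macrophages HIF-1α is best known for driving glycolysis and inflammatory genes, whereas HIF-2α has its own targets in iron handling and inflammation and shares many others, such as Vegfa.

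Total counts ranged from 13325609 to 19413838 in VavCre libraries and from 14226108 to 18987200 in WT libraries. The targeted gene Pex5 measured 31.4, 36.3 and 29.6 CPM (counts per 1000000 counts of the library, with library sizes scaled by TMM, a correction for composition) in VavCre replicates 1 to 3, against 33.0, 32.1 and 29.7 CPM in WT replicates 1 to 3. These counts include exons that recombination leaves in place, and they are no check of the genotype. VavCre replicate 2 stood apart in composition, with a scaling factor of 1.34 against 0.90 to 1.03 elsewhere. All 12 alveolar macrophage markers passed the count filter. On unscaled totals they summed to 47050 to 73220 CPM in VavCre and 54230 to 72380 CPM in WT libraries, most of it Chil3. The sum therefore says little of the other markers. Of the 12 markers 2 fell, against 1.51% of all genes tested. Siglecf was at 170 to 301 CPM in VavCre and 599 to 638 CPM in WT libraries. Krt79 was at 262 to 500 CPM in VavCre and 598 to 1061 CPM in WT libraries. A gene is said to have risen or fallen, or to be called, where its adjusted p was under 0.05.

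The promoters of 3 genes that HIFs are known to induce are shown because their transcripts behaved differently in these libraries: Slc2a1, the glucose transporter GLUT1, rose, Bnip3 covered nearly the same range in both groups, and Ankrd37 was close to absent. Each window runs from 250 bases before to 50 bases after the gene's start (RefSeq, GRCm38.p6), on the gene's strand. Capitals mark the core of the HIF response element, ACGTG or GCGTG on either strand, with overlapping matches counted separately.
Slc2a1, chr4:119108495-119108794, plus strand: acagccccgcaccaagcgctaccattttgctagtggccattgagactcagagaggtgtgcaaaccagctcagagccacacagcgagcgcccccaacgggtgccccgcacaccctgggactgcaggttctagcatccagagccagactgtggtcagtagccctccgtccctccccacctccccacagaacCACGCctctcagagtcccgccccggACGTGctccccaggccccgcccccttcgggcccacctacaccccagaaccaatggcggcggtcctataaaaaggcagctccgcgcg
Bnip3, chr7:138909457-138909756, minus strand: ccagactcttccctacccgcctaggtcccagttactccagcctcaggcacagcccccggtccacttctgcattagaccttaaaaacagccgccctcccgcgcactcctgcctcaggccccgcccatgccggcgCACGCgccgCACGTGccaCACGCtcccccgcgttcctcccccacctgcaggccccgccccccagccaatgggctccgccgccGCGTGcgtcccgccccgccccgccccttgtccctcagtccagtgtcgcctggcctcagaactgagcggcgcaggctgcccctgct
Ankrd37, chr8:45999801-46000100, minus strand: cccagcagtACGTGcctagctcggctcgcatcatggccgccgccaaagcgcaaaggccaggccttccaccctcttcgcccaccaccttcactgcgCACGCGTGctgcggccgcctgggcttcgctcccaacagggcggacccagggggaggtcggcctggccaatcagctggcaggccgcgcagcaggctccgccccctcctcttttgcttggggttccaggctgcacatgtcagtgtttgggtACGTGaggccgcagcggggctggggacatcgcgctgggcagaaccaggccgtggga
The Slc2a1 window held 2 matches, the Bnip3 window 5 and the Ankrd37 window 4. Of all 32851 promoter windows of 300 bases, 43.8% held at least 1 match and 20.6% at least 2. Windows were found for 9 of the 10 genes of the set, 10 windows in all, and 7 of these held a match. Those of Vhl, Hif1an and the upstream start of Vegfa held none, while a downstream start of Vegfa held 2. A match is a stretch of letters, not evidence of binding.

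Epas1 was much higher in VavCre than in WT macrophages. It measured 95.8, 85.4 and 121 CPM in VavCre replicates 1 to 3, against 16.04, 24.5 and 10.2 CPM in WT replicates 1 to 3. Every VavCre library lay above every WT library, and the lowest VavCre value was well clear of the highest WT value, that of WT replicate 2. The means were 101 ± 18.2 CPM in VavCre and 16.9 ± 7.20 CPM in WT (SD, n = 3 each), a log2 fold change of 2.57 ± 0.28 (SE), or 5.92-fold. Epas1 ranked 19 by size of change among the 277 genes called across the table with a mean of at least 5 CPM. The gene lies on chromosome 17 from 86753700 to 86833410 (GRCm38), its exons overlapped no other annotated gene, and none of the 100-base words of its longest transcript occurred in another gene. Leaving out WT replicate 2 gave 2.94 and leaving out WT replicate 3 gave 2.32, the widest values over 12 alternative analyses, and leaving out VavCre replicate 2 gave 2.68.

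Epas1 is abundant in lung endothelium, and bulk RNA cannot tell more cells of a type from more RNA per cell. Of 10 endothelial markers, Kdr and Emcn were at 0 in all libraries. Their summed level was 33.8 to 58.1 CPM in VavCre and 20.6 to 24.7 CPM in WT libraries, nearly all of it Vwf, the von Willebrand factor gene, which rose. The other 9 summed to 0.375 to 0.567 CPM in VavCre and 0.158 to 0.492 CPM in WT libraries. Of 10 neutrophil markers 3 could be tested and 2 rose, Cxcr2 and S100a8, against 1.74% of all genes tested. The other tested one, Csf3r, was not called, at 17.8 to 51.0 CPM in VavCre and 29.9 to 49.7 CPM in WT libraries. A further 6, S100a9 and Ly6g among them, were at 0 in every library. The neutrophil markers summed to 76.8 to 116 CPM in VavCre and 42.0 to 64.3 CPM in WT libraries. All these marker levels are on unscaled totals and are not on the scale of the Epas1 values above. Epithelial markers summed to 67.2 to 74.2 CPM in VavCre and 40.9 to 55.0 CPM in WT libraries, most of it Cdh1, which was not called, and Aqp5 was at 0. Fibroblast markers reached at most 0.0750 CPM in VavCre and 0.211 CPM in WT libraries, and T and B cell markers 0.337 CPM in VavCre and 0.316 CPM in WT libraries. Red cell markers reached 6.79 CPM in VavCre replicate 2 and were at 0 in WT libraries. The part of these cells in the Epas1 difference was not tested.

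**Figure D1:**
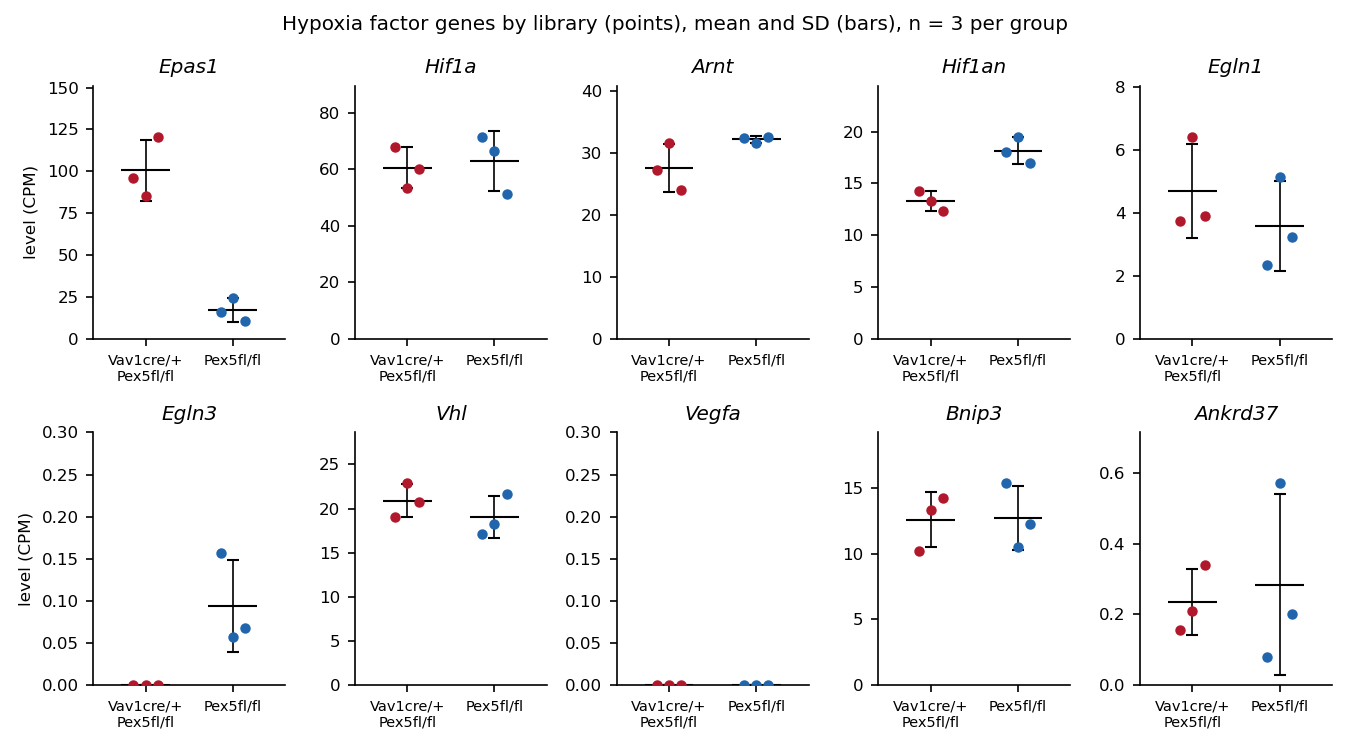
Levels of the 10 genes in CPM (vertical axes from 0, each gene on its own scale) in 3 Vav1cre/+ Pex5fl/fl libraries (red, left) and 3 Pex5fl/fl libraries (blue, right), with points for libraries and black bars for the mean ± SD. Epas1 lies at 85.4 to 121 CPM in the red libraries and 10.2 to 24.5 CPM in the blue ones, Hif1an is lower in the red ones without overlap, and Vegfa is at 0 in all 6.

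Hif1a, which encodes the other alpha subunit, showed no difference of that size. It measured 68.1, 53.5 and 60.3 CPM in VavCre replicates 1 to 3, against 71.7, 66.4 and 51.2 CPM in WT replicates 1 to 3. The groups overlapped, with the lowest value in WT replicate 3 and the highest in WT replicate 1. The log2 fold change was -0.06 ± 0.15, with a 95% interval from -0.39 to 0.28, and over the alternatives it ran from -0.17 to 0.10, so it has no firm sign. Hif1a is on chromosome 12 from 73901375 to 73947530, with 5.60% of its exon bases overlapped by an antisense gene and 2.51% by Gm49321 on the same strand.

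The alpha transcripts stood in the opposite order in the 2 groups. Per kilobase of exons, Epas1 was at 18.01 ± 3.25 CPM per kb in VavCre and 3.03 ± 1.29 in WT, and Hif1a was at 10.3 ± 1.24 CPM per kb in VavCre and 10.7 ± 1.80 in WT. Within each library, which needs no scaling between libraries, the ratio of Epas1 to Hif1a per length was 1.49, 1.68 and 2.11 in VavCre replicates 1 to 3, against 0.236, 0.390 and 0.210 in WT replicates 1 to 3. Epas1 was thus the more abundant alpha transcript in all VavCre libraries and the less abundant one in all WT libraries. Its share of the pair was 63.5 ± 4.11% in VavCre and 21.5 ± 5.73% in WT (SD, n = 3 each). The sum of both alpha transcripts was 28.3 ± 3.75 CPM per kb in VavCre and 13.7 ± 2.81 in WT, and the groups did not overlap.

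Arnt, the shared partner of both alpha subunits, measured 27.3, 31.7 and 24.0 CPM in VavCre replicates 1 to 3, against 32.5, 31.6 and 32.7 CPM in WT replicates 1 to 3. The WT libraries were tightly grouped, and VavCre replicate 2 lay among them while the other VavCre libraries lay below. The log2 fold change was -0.22 ± 0.12, with a 95% interval from -0.49 to 0.05, and -0.02 with scaling by library size alone. The summed alpha transcript per length was 8.40 ± 2.24 times that of Arnt in VavCre and 3.41 ± 0.738 times in WT. Arnt lies at chr3:95434388-95497240 (GRCm38, plus strand).

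**Figure D2:**
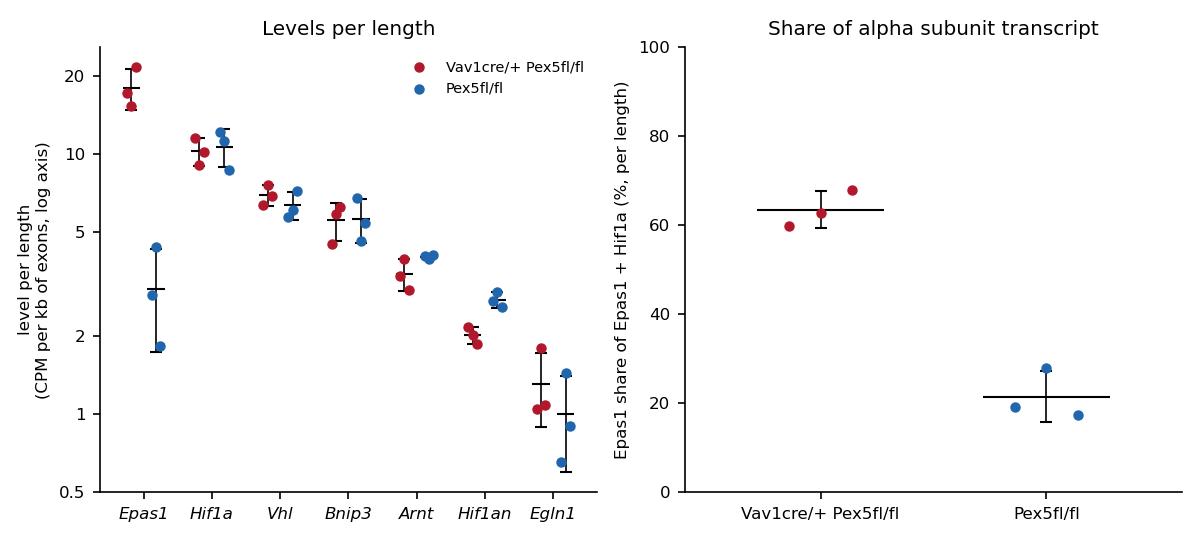
Left, levels per kilobase of exons (log axis) of the 7 genes that passed the count filter, and right, the share of Epas1 in the summed Epas1 and Hif1a transcript per length, in 3 Vav1cre/+ Pex5fl/fl libraries (red) and 3 Pex5fl/fl libraries (blue) with mean ± SD. The share is 59.8% to 67.9% in the red libraries and 17.4% to 28.03% in the blue ones, while Hif1a overlaps.

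Among the oxygen sensors of the set, Hif1an was lower, and the prolyl hydroxylase genes Egln1 and Egln3 were scarce. Hif1an measured 14.2, 13.3 and 12.3 CPM in VavCre replicates 1 to 3, against 17.99, 19.5 and 17.0 CPM in WT replicates 1 to 3. The groups did not overlap, which was also so for 26.1% of all genes tested. The log2 fold change was -0.46 ± 0.12, with values from -0.51 to -0.28 over the alternatives, and the gene, at chr19:44562850-44576274 on the plus strand, was not called in the fit over all genes.

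Egln1, the main prolyl hydroxylase that marks the alpha subunits, measured 3.75, 6.43 and 3.90 CPM in VavCre replicates 1 to 3, against 2.35, 5.15 and 3.24 CPM in WT replicates 1 to 3. Replicate 2 was the highest in both groups and the groups overlapped. The log2 fold change of 0.39 ± 0.34 had a 95% interval from -0.37 to 1.15, and over the alternatives it ran from 0.09 to 0.76. Egln3, the hydroxylase that HIFs themselves induce, had 0 counts in every VavCre library and 2, 1 and 1 counts in WT replicates 1 to 3. All of these are at or under a floor of 3 counts, so no fold is given. Egln2, a prolyl hydroxylase gene outside the set, was far more abundant, at 51.2 ± 2.53 CPM in VavCre and 57.6 ± 5.66 CPM in WT, with overlap (-0.17 ± 0.11, adjusted p = 0.421). Egln1 lies at chr8:124908587-124949324 and Egln3 at chr12:54178981-54203860, both on the minus strand.

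Vhl, which recognises hydroxylated alpha subunits for degradation, differed by less than the spread between libraries. It measured 19.1, 22.9 and 20.7 CPM in VavCre replicates 1 to 3, against 17.1, 18.3 and 21.7 CPM in WT replicates 1 to 3, with overlap. The log2 fold change was 0.14 ± 0.13, and 0.32 with scaling by library size alone. The gene lies at chr6:113623959-113631633 on the plus strand.

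Of the 3 shared targets only Bnip3 had counts enough to compare. Bnip3, a mitochondrial protein that marks mitochondria for autophagy, measured 10.3, 13.3 and 14.2 CPM in VavCre replicates 1 to 3, against 15.4, 10.5 and 12.3 CPM in WT replicates 1 to 3. The groups covered almost the same range. The log2 fold change was -0.01 ± 0.19, with a 95% interval from -0.43 to 0.42 and values from -0.13 to 0.17 over the alternatives. An antisense gene overlaps 22.3% of the exon bases of Bnip3 and 9.41% of its 100-base words recur elsewhere, chiefly in Gm16439, so its level is uncertain in part.

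Vegfa, the endothelial growth factor and a classical target of both HIFs, was listed at 0 in all 6 libraries. The limit that a count of 0 allows, 3 counts, corresponds to 0.126 to 0.235 CPM in VavCre and 0.172 to 0.235 CPM in WT libraries. It covers counting error alone, and whether the counting step could have missed the gene was not tested. The same holds for other genes listed at 0, such as S100a9, beside which S100a8 had 355 to 722 counts in VavCre and 83 to 112 counts in WT libraries. Ankrd37, a small ankyrin repeat protein induced by HIF-1α, had 2, 5 and 6 counts in VavCre replicates 1 to 3, against 1, 10 and 3 counts in WT replicates 1 to 3. With 13 counts in all VavCre and 14 in all WT libraries, a difference was not detectable at this depth. Exons of Lrp2bp on the other strand overlap 22.7% of Ankrd37, whose few reads are uncertain in origin. Bnip3 lies at chr7:138890836-138909519, Vegfa at chr17:46016993-46032369 and Ankrd37 at chr8:45996902-46005707, all on the minus strand.

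In order of level per length, VavCre libraries had Epas1 first, then Hif1a, Vhl, Bnip3, Arnt, Hif1an and Egln1, each with all libraries above those of the next. WT libraries had Hif1a first, then Vhl and Bnip3, whose libraries overlapped, then Arnt, Epas1 and Hif1an, neighbours that overlapped in turn, and Egln1. Epas1 was the first of these genes in VavCre and the fifth in WT. Of the 10 genes 7 passed the count filter and 1 of these, Epas1, was called in the fit over all genes, where 3.25% of 11011 genes were called in either direction, 1.74% as higher and 1.51% as lower. DESeq2 also called Epas1 alone, with 6.86% of all genes called. The median log2 fold change of the 7 was -0.01, against 0.00 over all genes tested.

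**Figure D3:**
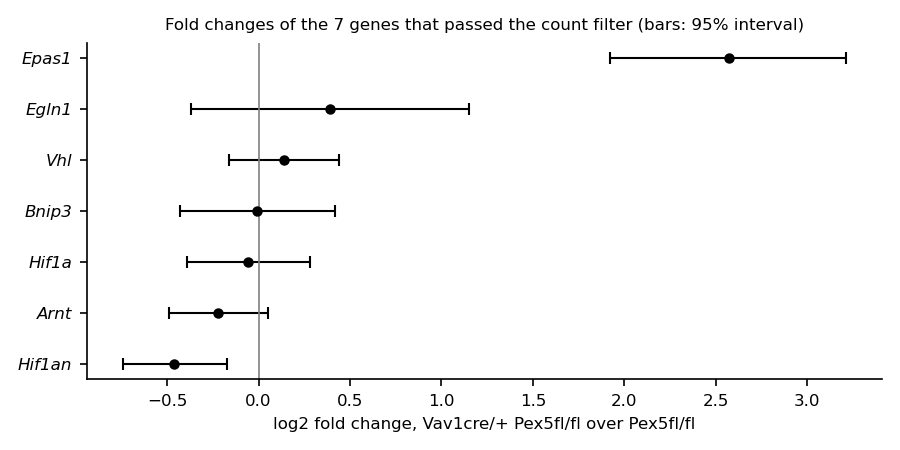
Log2 fold changes (horizontal axis, Vav1cre/+ Pex5fl/fl over Pex5fl/fl) of the 7 genes that passed the count filter, with 95% intervals over 3 libraries per group. Epas1 stands at 2.57, and the other 6 lie between -0.46 and 0.39.

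Further genes of the hypoxia pathway were followed through 9 lists of 116 genes, none of them among the 10. These genes were tested over the whole table with edgeR's quasi-likelihood test and Benjamini-Hochberg adjustment. The lists were chosen with earlier results of these data known, so their counts describe these libraries and are not independent support. Of 82 tested genes 4 rose and 1 fell, or 6.10%, against 3.25% of all genes, and 29 (35.4%) did not overlap between the groups, against 26.1%. Their median log2 fold change was 0.04. At an unadjusted edgeR p under 0.05 there were 12 higher and 10 lower among the 82. In glycolysis these were 4 higher and 3 lower, and among coactivators 1 higher and 2 lower. The share of all genes at that cut was not counted, so such counts, given below for some lists, are a description only. In all 5 were called, against 4 without VavCre replicate 2, 2 without WT replicate 1, 3 without WT replicate 3 and 9 with DESeq2. With a filter at a mean of at least 5 CPM, which leaves out Arnt2 and Cited4, 3 were called. Arnt2 and Cited4 passed the main count filter through their VavCre libraries.

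The largest of these changes was in Arnt2, a close relative of Arnt that can also pair with HIF alpha subunits and is known mainly from neurons. It rose, with 82, 72 and 91 counts in VavCre replicates 1 to 3, against 1, 8 and 0 counts in WT replicates 1 to 3. WT replicates 1 and 3 were under the floor of 3 counts and all VavCre libraries were well above it, so the size of the fold is uncertain. Arnt2 passed the count filter through its VavCre libraries alone, so the adjusted p-values that follow are a description and not independent support. Levels were 4.86 ± 1.71 CPM in VavCre and 0.179 ± 0.245 CPM in WT (log2 fold change 4.56 ± 0.66, adjusted p = 0.0115, n = 3 per group, higher in 3 of 3 libraries). Its call ended without WT replicate 1 (adjusted p = 0.0605), and without WT replicate 2 its log2 fold change was 6.77 (adjusted p = 0.0129). Per length, Arnt and Arnt2 together came to 4.09 ± 0.370 CPM per kb in VavCre and 4.05 ± 0.0389 in WT, against the sums of the alpha transcripts of 28.3 ± 3.75 in VavCre and 13.7 ± 2.81 in WT. Of 13 listed genes of the HIF family and its partners 3 could be tested. Among these 1 rose and 0 fell, against 3.25% of all genes called. Hif3a, the third alpha subunit gene, had no counts. Arntl, which encodes the clock factor BMAL1, was at 7.92 ± 1.79 CPM in VavCre and 11.7 ± 1.06 CPM in WT (-0.55 ± 0.19, adjusted p = 0.168).

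In oxygen-dependent degradation 0 of 10 tested genes were called by edgeR and 0 by DESeq2, and 1, lower, had an unadjusted p under 0.05. That gene, Usp20, a deubiquitinase that spares HIF-1α, was at 8.82 ± 0.778 CPM in VavCre and 11.5 ± 0.290 CPM in WT (-0.38 ± 0.14, adjusted p = 0.194). Siah1a, a ubiquitin ligase of prolyl hydroxylases, had 0.72 ± 0.38 (adjusted p = 0.340), and Rack1, the most abundant of the list, 0.26 ± 0.15 (adjusted p = 0.388). The median of the list was -0.01.

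Among coactivators and chaperones 1 of 9 rose and 0 fell, against 3.25% of all genes called. Cited4, a small protein that binds the coactivators CBP and p300, was at 4.54, 4.37 and 6.56 CPM in VavCre replicates 1 to 3, against 0.548, 0.859 and 0.608 CPM in WT replicates 1 to 3. The groups were far apart (log2 fold change 2.90 ± 0.31, adjusted p = 0.00339, higher in 3 of 3 libraries), and the call held without any 1 library. Its WT counts were 7, 15 and 9, so Cited4 entered the test through its VavCre libraries. Its adjusted p and the hold of its call are therefore a description and not independent support. Ncoa2, a nuclear receptor coactivator, had -0.41 ± 0.16 (adjusted p = 0.218), and Hsp90ab1, a chaperone of HIF-1α, -0.08 ± 0.25 (adjusted p = 0.907), or 0.05 with scaling by library size alone.

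Of 17 tested shared HIF targets 0 were called by edgeR, 1 was called as higher by DESeq2, and 1, higher, had an unadjusted p under 0.05. All of these refer to Mxi1, an antagonist of MYC, at 24.3 ± 2.65 CPM in VavCre and 16.6 ± 2.10 CPM in WT (0.56 ± 0.14, adjusted p = 0.0681). Hilpda, which restrains breakdown of lipid droplets, had 0.43 ± 0.24 (adjusted p = 0.370). Hmox1, the haem-degrading enzyme and the most abundant of the list, varied most in VavCre, with 904.5, 288 and 358 CPM in replicates 1 to 3, against 458, 230.1 and 322 CPM in WT replicates 1 to 3 (0.62 ± 0.42, adjusted p = 0.472). Without VavCre replicate 1 its log2 fold change was -0.06, and with scaling by library size alone its adjusted p was 0.0391. The list's median was 0.15.

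Among glycolysis genes the calls went in both directions. Of 18 tested genes 1 rose and 1 fell, against 3.25% of all genes called, and the median of the list was -0.22. Slc2a1 measured 50.1, 28.8 and 29.6 CPM in VavCre replicates 1 to 3, against 14.9, 17.1 and 16.3 CPM in WT replicates 1 to 3. All VavCre libraries were above all WT libraries, VavCre replicate 1 by the most (log2 fold change 1.16 ± 0.21, adjusted p = 0.0261). Leaving out WT replicate 1, 2 or 3 ended the call, with adjusted p of 0.118, 0.0774 and 0.0821 in that order. Pfkp, a phosphofructokinase, fell to 125 ± 0.675 CPM in VavCre, against 185 ± 22.9 CPM in WT (-0.56 ± 0.12, adjusted p = 0.0424). It lost its call whichever library was left out (adjusted p = 0.0546 to 0.150), and with scaling by library size alone (0.379). Exons of Pitrm1 on the other strand overlap 5.58% of Pfkp. Aldoa, the most abundant of these genes per length, had -0.21 ± 0.24 (adjusted p = 0.696).

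Of 13 listed HIF-2 linked targets 7 could not be tested. Among the 6 tested, 1 rose and 0 fell by edgeR, and DESeq2 called 1 as higher and 1 as lower. Over all genes edgeR called 3.25% and DESeq2 6.86%. The median log2 fold change of the 6 was 0.33. Slc11a2, the iron transporter DMT1 and a target of HIF-2α in mouse intestine, measured 22.8, 20.6 and 19.7 CPM in VavCre replicates 1 to 3, against 12.2, 11.8 and 11.1 CPM in WT replicates 1 to 3. Both groups were tight and apart (log2 fold change 0.84 ± 0.12, adjusted p = 0.0111, higher in 3 of 3 libraries), and the call held without any 1 library. Csf1r, the receptor for macrophage colony-stimulating factor, was at 240.0 ± 20.3 CPM in VavCre and 331 ± 40.2 CPM in WT (-0.46 ± 0.14, adjusted p = 0.113 by edgeR). It is the gene that DESeq2 called as lower (adjusted p = 0.0365). Exons on the other strand overlap 6.33% of Slc11a2 and 15.1% of Csf1r.

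Of 3 tested HIF-1 linked genes 0 were called by edgeR and 0 by DESeq2, and 1, higher, had an unadjusted p under 0.05. This was Higd1a, a mitochondrial protein induced by low oxygen (0.30 ± 0.12, adjusted p = 0.217), and Lonp1, a mitochondrial protease, had 0.35 ± 0.17 (adjusted p = 0.308). Nos2, the inducible nitric oxide synthase gene, had no counts. Of 5 tested VEGF ligands and receptors 0 were called by edgeR and 0 by DESeq2, and 3, all higher, had an unadjusted p under 0.05. Vegfb, a ligand of the same family, was at 7.27 ± 0.323 CPM in VavCre and 4.92 ± 0.880 CPM in WT (0.56 ± 0.19, adjusted p = 0.161), Nrp2, a coreceptor, had 0.33 ± 0.13 (adjusted p = 0.211), and Flt1, the most abundant, -0.09 ± 0.17 (adjusted p = 0.828), or 0.04 with scaling by library size alone.

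Of 11 genes upstream of HIF-1α 0 were called by edgeR and 0 by DESeq2, and 2, both lower, had an unadjusted p under 0.05. These were Eif4ebp1, a repressor of translation controlled by mTOR (-0.30 ± 0.10, adjusted p = 0.155), and the transcription factor gene Stat3 (-0.29 ± 0.12, adjusted p = 0.227). Nfe2l2, the most abundant, had -0.02 ± 0.13 (adjusted p = 0.947), or 0.12 with scaling by library size alone.

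**Figure D4:**
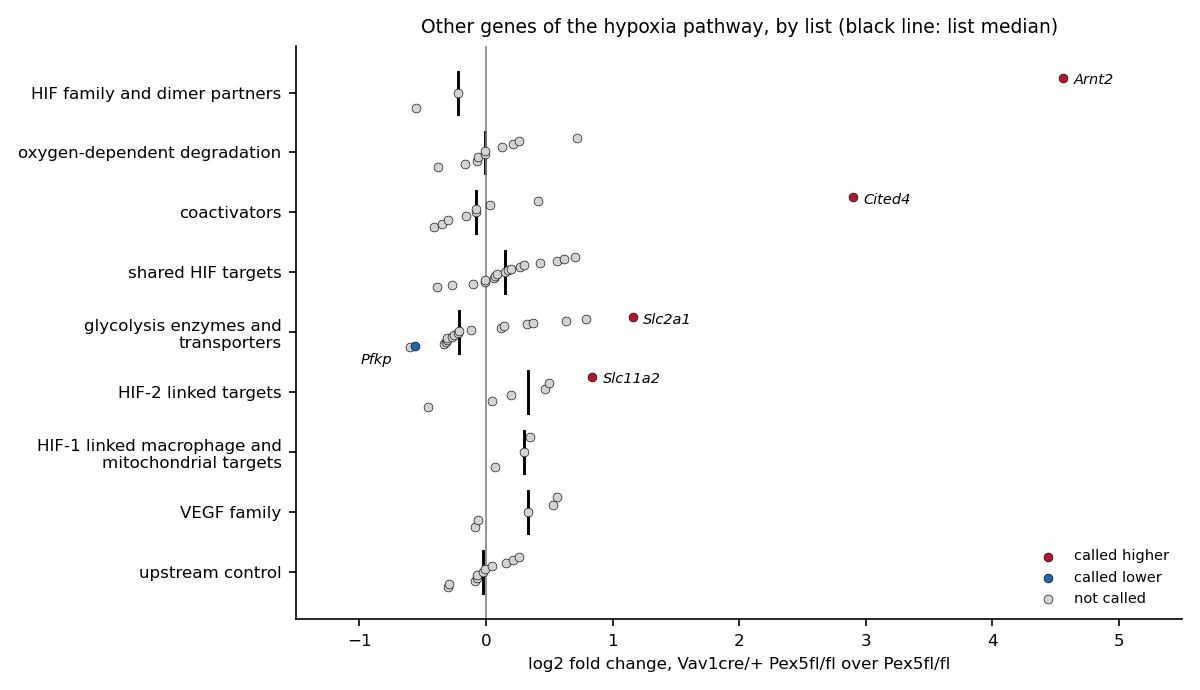
Log2 fold changes (horizontal axis, Vav1cre/+ Pex5fl/fl over Pex5fl/fl) of 82 further genes of the hypoxia pathway, one point per gene and one row per list, with the list's median as a black line. The called genes are Arnt2, Cited4, Slc2a1 and Slc11a2 (higher, red) and Pfkp (lower, blue), and the list medians lie between -0.22 and 0.33.

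The genes whose profile over the 6 libraries was nearest to that of Epas1 were found among 8318 genes, as the root mean square difference of log2 CPM after centring each gene on its mean. They were Igf1, a growth factor (0.21), Ptgir, the prostacyclin receptor (0.32), Tst, a mitochondrial sulfurtransferase (0.33), Stra6l, a retinol transporter (0.35), and Myo5a, a motor protein (0.36). Igf1 was at 179 ± 49.1 CPM in VavCre and 23.9 ± 10.1 CPM in WT, and like Epas1 it was highest in VavCre replicate 3 and, among WT libraries, highest in replicate 2 and lowest in replicate 3. Ptgir was at 79.7 ± 21.05 CPM in VavCre and 18.2 ± 12.5 CPM in WT, with the same order of libraries within each group. These genes were selected for likeness over 6 libraries, and the measure says nothing of shared control.

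**Figure D5:**
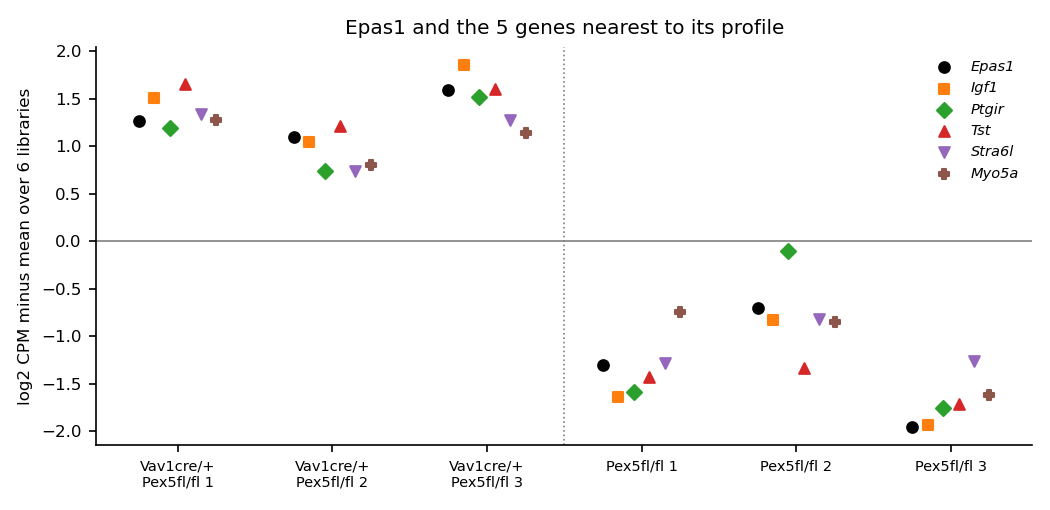
Log2 CPM of Epas1 (black circles) and the 5 genes nearest to it, each centred on its mean over 6 libraries (vertical axis), by library (horizontal axis, 3 Vav1cre/+ Pex5fl/fl left and 3 Pex5fl/fl right of the dotted line). Epas1 lies at 1.10 to 1.597 in the left libraries and at -1.95 to -0.70 in the right ones.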

How the data were processed

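Per the labels' protocols, total RNA came from 50000 sorted lavage macrophages per library, made into stranded SMART-Seq libraries and read as single ends of 100 bases. The authors deposited raw gene counts, 1 column per library. STAR, featureCounts, R 4.3.2, DESeq2 1.40.1, GRCm38.p5 and mm10 are named per the submitters' processing notes. The annotation is not given there, nor whether strand was used in counting, so genes overlapped on the other strand are uncertain. Reads are not distinct molecules, so limits cover counting error only. The labels do not tie each library to its own mouse, and the p-values then reflect only how these libraries vary.

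Counts were tested with edgeR 4.0.16 in R 4.3.3 (filterByExpr, minimum count 10 and total 15, TMM factors, quasi-likelihood F test, two-sided, Benjamini-Hochberg over 11011 genes, threshold 0.05), with group as the only term. SEs were derived from the F statistics. DESeq2 1.42.0 was an alternative, with other scalings, filters, a replicate term and each library left out. Lengths, coordinates and shared 100-base words came from GENCODE M21, matched by symbol for 24932 genes. On simulated counts (10931 genes) 68.2% of 2-fold and 98.0% of 4-fold changes were recovered, with 7.46% false calls. The members and lists were chosen with earlier results of these data known. Named genes were the 10 genes, Pex5, each list's called genes or, where fewer than 2 were called, the 2 with the smallest p, its most abundant gene per length, and the 5 nearest profiles. Markers are in CPM of unscaled totals. One further marker list is not reported here. Replicate numbers were not taken to pair libraries, and whether they do is not stated in the labels.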

Additional observations from a re-analysis of the deposited data

How the results depend on the processing

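Over the 12 alternatives the log2 fold change of Epas1 ran from 2.32 to 2.94. Epas1 was called in each and no other gene of the set in any. The set was selected on this same contrast, so these calls are a description and not independent support. Scaling by library size alone shifted the median of all genes by 0.17 and called 289 genes as higher and 132 as lower, against 192 and 166. The count of called genes was 358, but 755 with DESeq2 (the 358 among them), 83 with a replicate block, and 76 to 523 with 1 library left out. The list genes called numbered 5, but 8 without a low-count filter, 3 with a mean of at least 5 CPM, 9 with DESeq2, 1 with a replicate block, Cited4, and 2 to 5 with 1 library left out. Without WT replicate 1 they were Cited4 and Slc11a2 alone. Same-numbered libraries of the groups deviated with correlations of -0.214, -0.062 and -0.411, and none was closest to its own number, so the numbers were not taken as pairs. Egln3 and Ankrd37, with few counts, could not be compared at this depth. Vegfa, at 0 in all 6 libraries, could not be compared either, and whether the counting step missed it was not tested. Of the named list genes 4, none of them called with TMM scaling and all libraries, changed sign. Hsp90ab1 (-0.08) became 0.05 with library size alone, 0.12 without VavCre replicate 2 and 0.04 without WT replicate 2. Nfe2l2 (-0.02) became 0.12, 0.10 and 0.01 under the same alternatives. Flt1 (-0.09) became 0.04 with library size alone, 0.01 without VavCre replicate 2 and 0.13 without WT replicate 3, and Hmox1 (0.62) became -0.06 without VavCre replicate 1. With 1 library left out in turn, Hsp90ab1 ran from a log2 fold change of -0.37 up to 0.12, Nfe2l2 from -0.10 up to 0.10, Flt1 from -0.23 up to 0.13 and Hmox1 from -0.06 up to 0.92. All 5 nearest profiles were also the nearest with a prior count of 0.5. The causes of these shifts were not tested.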

Other observations

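Several pathway genes too scarce for the test had more counts in VavCre than in WT libraries, and were picked after their values were seen. Plod2, which modifies collagen, had 39 counts in all VavCre libraries and 9 in all WT libraries, and Angpt2, a vascular growth factor, had 21 in VavCre and 8 in WT libraries. Mmp14, a membrane metalloproteinase, had 11 in VavCre and 3 in WT libraries. Ahr, the xenobiotic receptor and a further partner of ARNT, had 8 in VavCre and 3 in WT libraries. Other untested genes with similarly few counts were near level. Arg1 had 11 in VavCre and 9 in WT libraries, Ahrr 13 in VavCre and 13 in WT, and Cox4i2 9 in VavCre and 11 in WT. In contrast, Adm, Ddit4 and Ak4, which low oxygen induces in many cells, had at most 3 counts over the libraries of either group, and the acid-base enzyme gene Car12 and Stc2 had none.

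Among glycolysis genes outside the naming rule, Hk2, the first enzyme of the pathway, was at 18.3 ± 2.67 CPM in VavCre and 11.8 ± 1.18 CPM in WT (SD, n = 3 each, log2 fold change 0.63, adjusted p = 0.0654 by edgeR, higher in 3 of 3 libraries), and the aldolase gene Aldoc was at 212 ± 17.1 CPM in VavCre and 123 ± 33.0 CPM in WT (0.79, adjusted p = 0.0572). Neither was called over all genes, but both were called by DESeq2. Other genes of the list went the other way. Of 18 tested glycolysis genes 4 were higher and 7 lower without overlap between the groups (61.1%), against 26.1% of all genes tested. The list's median was -0.22. Among those lower were Pfkfb3 (-0.6, adjusted p = 0.153 by edgeR) and Ldha (-0.33, adjusted p = 0.398 by edgeR), neither of them called.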
